A study of Mus musculus with 62 samples.

Results

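The sarcomeric myosin heavy chain genes followed in mouse tibialis anterior were Myh4, Myh1, Myh2, Myh7, Myh3 and Myh8. They were taken by symbol, 6 of the 47643 gene symbols of the deposited table, and each was described by its TPM (a share of the library corrected for transcript length) and by its share of the summed TPM of the 6. Libraries came from female mice labelled as aged 2 months, and the groups are CAC (cachectic melanoma cells), NCAC (non-cachectic melanoma cells) and Con (mock), each at 2, 4, 6 and 8 weeks after injection. There were 62 libraries in 12 groups, 5 in each group and 7 in CAC at 8 weeks, where the numbers in the titles have gaps. The strain is C57BL/6J (also written C57BL6/J) in the sample labels and NCI Ath/nude in the series' design text, and this was not resolved. All groups share this sex, age label and muscle, and no genotype or transgene is given in the sources used here. Whether 2 months is the age at injection or at collection is not given. Groups of different weeks may therefore also differ in age.

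Myosin heavy chain is the motor of the thick filament, and the isoform a fibre makes sets much of its speed and fatigue resistance. In adult mouse limb muscle Myh4 encodes the IIb isoform of the fastest, glycolytic fibres, Myh1 the IIx isoform, Myh2 the IIa isoform of fast oxidative fibres and Myh7 the slow isoform, which is also a ventricular heart myosin. Myh3 encodes the embryonic and Myh8 the perinatal isoform, which dominate in developing and regenerating fibres. In cancer cachexia body weight is lost from muscle as well as fat, and the tibialis anterior is a mainly fast muscle of the hind limb.

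In the GENCODE M21 annotation of GRCm38, 5 of the 6 genes lie on the plus strand of chromosome 11 in the order Myh3 (67078300 to 67102291), Myh2 (67171027 to 67197517), Myh1 (67200052 to 67224575), Myh4 (67238029 to 67260446) and Myh8 (67277124 to 67308634), followed by Myh13, the extraocular muscle isoform. The gaps between neighbours are 68.74 kb from Myh3 to Myh2, 2.54 kb from Myh2 to Myh1, 13.45 kb from Myh1 to Myh4, 16.68 kb from Myh4 to Myh8 and 13.02 kb from Myh8 to Myh13. Myh7 lies on the minus strand of chromosome 14 (54970684 to 54994626), beside Myh6, a heart isoform.

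The 250 bases before the start of Myh2, Myh1, Myh4 and Myh8 (RefSeq starts, GRCm38.p6, plus strand) are shown because they hold one 14-base word, in capitals, which was picked for being shared by these 4 genes after their values had been seen.
Myh2, chr11:67170777-67171026: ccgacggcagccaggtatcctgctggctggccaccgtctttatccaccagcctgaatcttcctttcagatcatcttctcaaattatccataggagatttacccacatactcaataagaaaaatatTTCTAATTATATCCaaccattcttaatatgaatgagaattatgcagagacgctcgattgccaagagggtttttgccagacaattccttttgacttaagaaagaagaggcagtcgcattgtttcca
Myh1, chr11:67199852-67200101: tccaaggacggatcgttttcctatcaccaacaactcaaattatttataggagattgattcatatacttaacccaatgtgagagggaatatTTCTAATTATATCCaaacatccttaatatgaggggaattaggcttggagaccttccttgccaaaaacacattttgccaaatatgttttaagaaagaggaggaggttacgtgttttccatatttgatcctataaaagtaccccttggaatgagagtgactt
Myh4, chr11:67237562-67237811: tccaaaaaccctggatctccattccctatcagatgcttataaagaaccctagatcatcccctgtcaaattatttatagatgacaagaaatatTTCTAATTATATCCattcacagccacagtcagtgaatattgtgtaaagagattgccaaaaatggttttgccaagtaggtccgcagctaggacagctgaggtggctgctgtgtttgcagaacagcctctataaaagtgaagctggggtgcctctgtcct
Myh8, chr11:67276874-67277123: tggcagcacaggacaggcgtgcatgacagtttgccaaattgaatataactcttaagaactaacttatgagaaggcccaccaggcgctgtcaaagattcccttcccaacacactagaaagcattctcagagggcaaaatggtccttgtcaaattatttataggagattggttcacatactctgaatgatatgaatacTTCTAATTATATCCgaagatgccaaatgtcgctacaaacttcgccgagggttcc
The word TTCTAATTATATCC begins 125 bases before the start of Myh2, 160 before Myh1, 158 before Myh4 and 54 before Myh8. On either strand it stands in 4 of 32851 promoter windows of this length (0.0122%), those of the same 4 genes, and these letters are not in the windows of Myh3, Myh7 or Myh13. No motif name is given to it, and its use in these muscles was not measured.

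Myh4 was the most abundant isoform in 56 libraries and Myh1 in the other 6. Over the 62 libraries Myh4 averaged 9065 TPM (3286 to 16333), Myh1 4931 TPM (2550 to 10155) and Myh2 560.2 TPM (24.1 to 1779), and Myh2 ranked next after these in all 62. Myh8 averaged 53.4 TPM (1.06 to 143.7), Myh3 3.18 TPM (0.577 to 9.83) and Myh7 1.32 TPM (0.0405 to 11.999). As mean shares of the summed TPM, Myh4 held 60.9%, Myh1 34.6%, Myh2 4.13%, Myh8 0.366%, Myh3 0.0219% and Myh7 0.00952%. The ranges of Myh4 and Myh1 overlap widely, as do those of Myh3 and Myh7, while the lowest Myh1 value lies above the highest Myh2 value. All 6 genes passed the filter on low values, a mean of at least 1 TPM. The 6 libraries in which Myh1 exceeded Myh4 were 2 of 22 CAC, 2 of 20 NCAC and 2 of 20 Con libraries. In bulk muscle fewer fibres of a type and less RNA per fibre cannot be told apart.

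**Figure D1:**
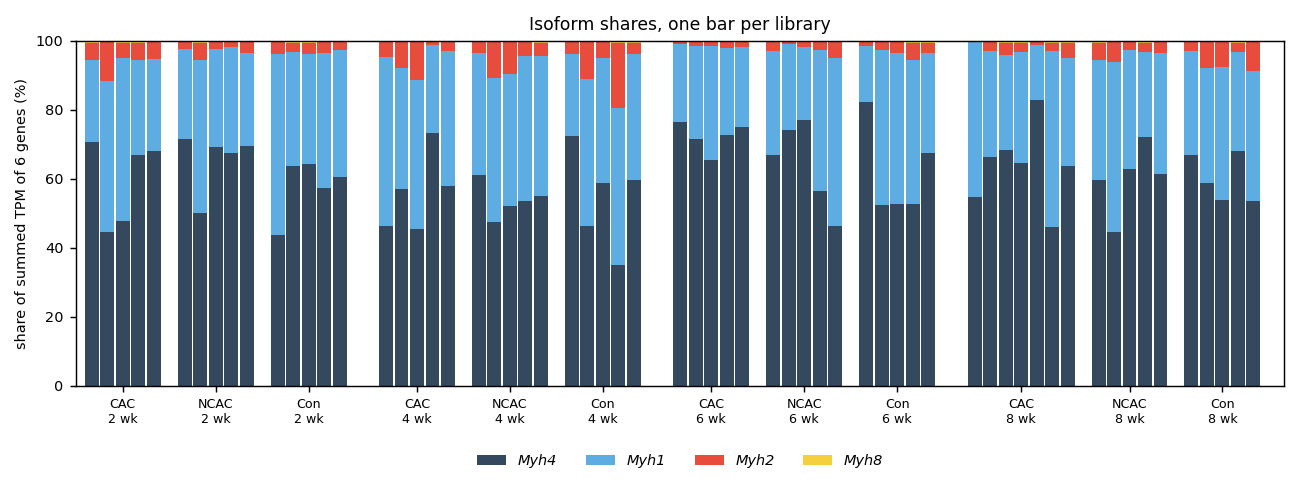
Share of each isoform in the summed TPM of the 6 genes (percent, vertical axis), 1 stacked bar per library, ordered by week and, within a week, CAC, NCAC and Con. Myh4 and Myh1 fill 80.4% to 99.8% of every bar, and the shares of Myh3 and Myh7, at most 0.0622% and 0.0914%, are too small to draw.

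The summed TPM ran from 7754 to 22633, which is 0.775% to 2.26% of all TPM in a library. At 8 weeks its mean was 16391 ± 2873 TPM in the 7 CAC libraries, 14226 ± 1571 in the 5 NCAC libraries and 13571 ± 1972 in the 5 Con libraries (± SD). At 6 weeks the means were 18133 ± 2803 TPM in CAC, 14191 ± 3697 in NCAC and 14320 ± 1461 in Con (SD, n = 5 each), and the ranges of the 3 groups overlap at both weeks. TPM fixes the total of a library, so a level is relative to all other transcripts. The median log2 change of all 11107 genes tested was 0.46 at 8 weeks and 0.38 at 6 weeks in CAC against Con, and 0.02 and 0.01 after rescaling by median-of-ratios size factors. Changes are therefore given on 3 scales: TPM as deposited, rescaled, and relative to the summed TPM of the 6 genes, where a change is a change of share.

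**Figure D2:**
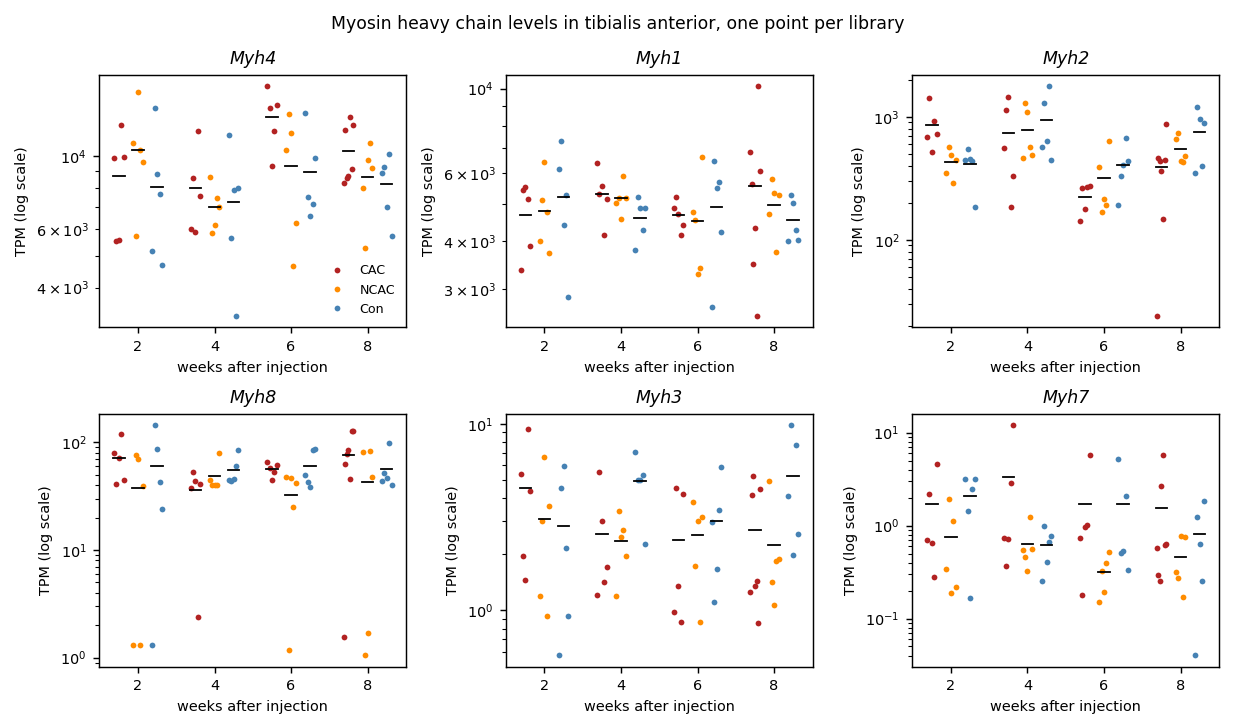
TPM of each isoform (logarithmic vertical axes, a separate range for each gene) by week after injection, 1 point per library, with CAC left of NCAC and NCAC left of Con and a line at the mean of each group. Within each week the range of every group overlaps those of the other 2 for every isoform, and Myh8 has 8 libraries between 1.06 and 2.39 TPM far below the rest.

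Over 16 contrasts, each isoform was tested by limma on log2(TPM + 1) with Benjamini-Hochberg adjustment over 11107 genes, which makes 96 tests of a member on each of 3 scales. Of these 96, 3 passed an adjusted p of 0.05 on TPM as deposited, 6 after rescaling and 4 relative to the summed TPM. All 3 on TPM as deposited are of Myh2 and use the CAC libraries at 8 weeks. The contrasts share groups, so they are not independent.

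At 8 weeks Myh2 stood at 24.1, 465.4, 435.3, 360.7, 146.4, 442.9 and 865.6 TPM in CAC replicates 1 to 7, against 347.5, 1190, 965.0, 396.2 and 884.7 TPM in Con replicates 1 to 5. The CAC values except that of replicate 7 lie below 500 TPM, 3 of the 5 Con values lie above it, and the groups overlap. Myh2 averaged 391.5 ± 268.0 TPM in CAC and 756.7 ± 369.2 TPM in Con (SD, n = 7 and 5), a log2 change of -1.32 (SE 0.50, 95% interval -2.33 to -0.32, limma adjusted p = 0.0156). It was the 1 of 6 isoforms called on TPM as deposited, where 74.5% of all genes tested were called, 69.4% higher and 5.09% lower; after rescaling the same week gave 49.1%, with 24.9% higher and 24.2% lower. Rescaled, the change of Myh2 was -1.84 (adjusted p = 0.00314), and 2 of 6 isoforms, Myh2 and Myh3, were called.

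As a share of the summed TPM, Myh2 held 0.159%, 2.56%, 3.45%, 2.68%, 0.918%, 2.23% and 4.44% in the CAC libraries at 8 weeks, against 2.61%, 7.53%, 7.37%, 2.65% and 8.28% in the Con libraries. The mean share was 2.35 ± 1.45% in CAC and 5.69 ± 2.81% in Con (SD, n = 7 and 5), a log2 change of -1.59 relative to the summed TPM (SE 0.52, limma adjusted p = 0.0110). An exact permutation test of the share, two-sided and not adjusted over its 24 tests, gave p = 0.0290. On this scale 2 of 6 isoforms were called, again Myh2 and Myh3, where 45.3% of all genes tested were called.

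One library carried much of the fall. CAC replicate 1 at 8 weeks had the lowest Myh2 of all 62 libraries, and also the lowest Actc1 (1.35 TPM), the cardiac actin gene that limb muscle also expresses, and the lowest Myh13. It had the highest Trim63 (4657 TPM), the ubiquitin ligase MuRF1 that tags thick filament proteins. Without it the change of Myh2 was -0.75 (limma adjusted p = 0.102), and relative to the summed TPM -1.03 (adjusted p = 0.0678). Without Con replicate 2, the highest of its group, it was -1.12 (adjusted p = 0.0536), and in a fit of only the 8-week groups -1.32 (adjusted p = 0.0699). The first principal component of all genes placed 3 CAC libraries farthest from the mean, replicates 1 and 6 at 8 weeks and replicate 1 at 6 weeks, and leaving them out gave -0.78 (adjusted p = 0.111).

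**Figure D3:**
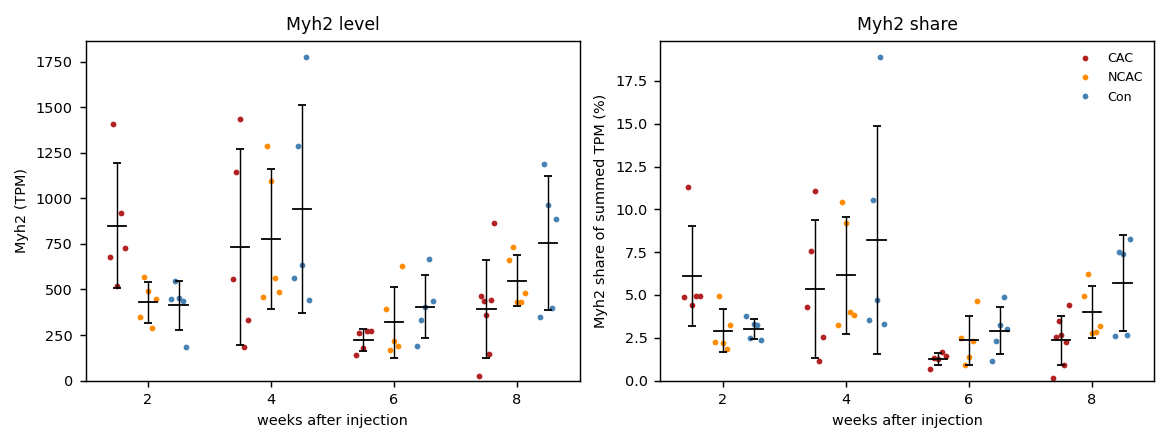
Myh2 level in TPM (left) and Myh2 share of the summed TPM of the 6 genes in percent (right) by week after injection, 1 point per library, with CAC left of NCAC and NCAC left of Con, and the mean with its SD. Mean levels in CAC were 850.1, 731.3, 224.4 and 391.5 TPM at 2, 4, 6 and 8 weeks, and in Con 413.5, 941.4, 406.2 and 756.7 TPM.

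At 2 weeks the Myh2 values of CAC and Con were placed the other way round. Myh2 stood at 680.5, 1408, 518.1, 918.0 and 725.6 TPM in CAC libraries, against 445.5, 546.3, 455.3, 435.0 and 185.6 TPM in Con libraries. Of the 5 CAC values, 4 exceed the highest Con value. The log2 change was 1.04 (95% interval -0.04 to 2.12, limma adjusted p = 0.567) and was not called, nor was any other isoform (0 of 6, also 0 of 6 at an unadjusted p under 0.05), where 0.0540% of all genes tested were called.

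The Myh2 shares at 2 weeks did not overlap. They were 4.86%, 11.3%, 4.43%, 4.92% and 4.96% in CAC, against 3.78%, 2.48%, 3.30%, 3.23% and 2.39% in Con. How many of all genes tested separate in this way on that scale was not counted. The exact permutation test gave p = 0.00794, the smallest that 5 against 5 libraries allow, unadjusted, while limma relative to the summed TPM gave a log2 change of 0.93 (adjusted p = 1.00), with 0% of all genes called on that scale. The difference between weeks was tested directly: the CAC against Con change of Myh2 at 8 weeks minus that at 2 weeks was -2.36 (SE 0.74, 95% interval -3.84 to -0.89, limma adjusted p = 0.0118), where 39.0% of all genes tested were called and 1 of 6 isoforms. Rescaled it was -2.73 (adjusted p = 0.00960), with Myh3 also called (19.8% of all genes), and relative to the summed TPM -2.52 (adjusted p = 0.0289; 9.68% of all genes). Leaving out each library in turn gave -2.64 to -1.79, with adjusted p from 0.00471 to 0.0281.

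Within CAC muscle, Myh2 fell between 2 and 8 weeks, to 391.5 ± 268.0 TPM at 8 weeks against 850.1 ± 343.0 TPM at 2 weeks (SD, n = 7 and 5; log2 change -1.57, SE 0.50, limma adjusted p = 0.00626), where 1 of 6 isoforms and 60.9% of all genes tested were called. The call also stood rescaled (-1.92, adjusted p = 0.00261; 43.1% of all genes) and relative to the summed TPM (-1.77, adjusted p = 0.00818; 30.5% of all genes). The change lay between -1.85 and -1.0001 when each library was left out in turn, with adjusted p of at most 0.0401, and was -1.03 (adjusted p = 0.0507) without the 3 CAC libraries named above. From 2 to 8 weeks no isoform was called in NCAC (0 of 6, background 0%) or Con (0 of 6, background 0.270%), and at an unadjusted p under 0.05 the counts on TPM as deposited were also 0. Relative to the summed TPM, Myh3 had an unadjusted p under 0.05 in Con (1 of 6, 0.78, limma adjusted p = 0.999), and NCAC had 0 of 6. The Myh2 change over that time was 0.36 in NCAC (95% interval -0.73 to 1.44) and 0.79 in Con (-0.29 to 1.87).

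At 4 weeks Myh2 averaged 731.3 ± 538.0 TPM in CAC, 778.0 ± 385.3 in NCAC and 941.4 ± 571.6 in Con (SD, n = 5 each). The spread within each group exceeds the differences between them, and Con replicate 4 alone had 1779 TPM, a share of 18.9% that was the highest of all libraries. At 6 weeks Myh2 stood at 141.0, 261.5, 178.5, 269.4 and 271.4 TPM in CAC, against 192.3, 332.5, 403.0, 667.6 and 435.9 TPM in Con. Of the 5 Con values, 4 exceed every CAC value. The log2 change was -0.79 (95% interval -1.87 to 0.29, limma adjusted p = 0.195) and rescaled -1.22 (adjusted p = 0.0827). The share was 1.26 ± 0.368% in CAC and 2.92 ± 1.36% in Con (SD, n = 5 each; exact permutation p = 0.0397, unadjusted).

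Myh4 stood at 16333, 13987, 9362, 11914 and 14316 TPM in CAC at 6 weeks, against 13554, 7503, 6579, 7192 and 9878 TPM in Con. The CAC values lie mostly higher, and 2 of the 5 Con values, 13554 and 9878 TPM, fall among them. The log2 change was 0.59 (95% interval 0.01 to 1.16, limma adjusted p = 0.0682), with 64.0% of all genes tested called, 60.7% higher and 3.26% lower, and 0 of 6 isoforms called (1 of 6, Myh4, at an unadjusted p under 0.05). Rescaled it was 0.15 (adjusted p = 0.651), where 35.0% of all genes were called, 16.9% higher and 18.1% lower. Myh4 was called without CAC replicate 3 (0.71, adjusted p = 0.0405) or without Con replicate 1 (0.75, adjusted p = 0.0263). At 8 weeks Myh4 averaged 10342 ± 2111 TPM in CAC and 8226 ± 1802 TPM in Con (SD, n = 7 and 5; 0.34, adjusted p = 0.250, rescaled -0.19, adjusted p = 0.506), so the sign of this uncalled value depends on the scale.

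Myh1 stood at 6823, 5624, 3488, 4323, 2550, 10155 and 6079 TPM in CAC at 8 weeks, against 3997, 5287, 5037, 4280 and 4026 TPM in Con. The CAC values spread to both sides of the Con values. Means were 5577 ± 2512 TPM in CAC and 4525 ± 598.0 TPM in Con (SD, n = 7 and 5). The CAC libraries hold both the lowest and the highest Myh1 of all 62, 2550 TPM in replicate 5 and 10155 TPM in replicate 6. The log2 change was 0.19 (95% interval -0.24 to 0.61, limma adjusted p = 0.434) and rescaled -0.34 (adjusted p = 0.191). In replicate 5 Myh4 reached 82.8% of the summed TPM and Myh1 15.99%, while in replicate 6 Myh1 reached 51.1% and Myh4 45.98%. At 2, 4 and 6 weeks the changes of Myh1 in CAC against Con were -0.11, 0.20 and -0.01, none called.

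**Figure D4:**
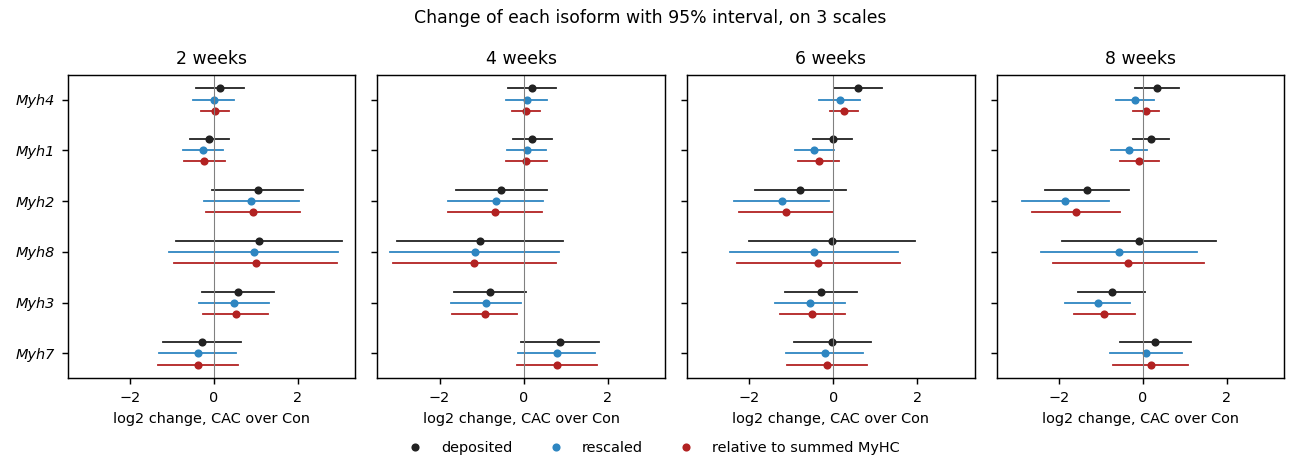
Log2 change of each isoform in CAC over Con at each week (horizontal axes, shared) with 95% intervals from limma, on TPM as deposited (black), rescaled (blue) and relative to the summed TPM of the 6 genes (red). At 8 weeks the intervals of Myh2 lie below 0 on all 3 scales, -2.33 to -0.32 as deposited, and the widest intervals are those of Myh8.

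Myh3, the embryonic isoform, stood at 1.26, 4.17, 5.27, 1.36, 1.44, 0.860 and 4.47 TPM in CAC at 8 weeks, against 4.10, 9.83, 1.98, 7.75 and 2.58 TPM in Con. Of the 7 CAC values, 4 lie below every Con value and 3 fall among the Con values. The log2 change was -0.74 (SE 0.40, 95% interval -1.54 to 0.05, limma adjusted p = 0.0851) as deposited, -1.08 (adjusted p = 0.0178) rescaled and -0.92 (adjusted p = 0.0329) relative to the summed TPM. Its share was 0.0171 ± 0.0131% in CAC and 0.0368 ± 0.0196% in Con (SD, n = 7 and 5; exact permutation p = 0.0644). Leaving out any of CAC replicates 1, 4, 5 and 6 or Con replicates 2 and 4 ended the call on the share scale (adjusted p up to 0.122).

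NCAC muscle also had little Myh3 at 8 weeks, 2.24 ± 1.56 TPM, against 5.248 ± 3.403 TPM in Con (SD, n = 5 each; log2 change -0.88, 95% interval -1.74 to -0.02, limma adjusted p = 1.00). CAC against NCAC gave 0.14 (95% interval -0.66 to 0.93, limma adjusted p = 0.766). Both comparisons share libraries with that of CAC against Con. At 4 weeks Myh3 averaged 2.58 ± 1.79 TPM in CAC, 2.35 ± 0.831 TPM in NCAC and 4.94 ± 1.73 TPM in Con (SD, n = 5 each). No isoform was called in CAC against Con at 4 weeks on TPM as deposited (0 of 6, also 0 of 6 at an unadjusted p under 0.05), where 0.936% of all genes tested were called. Relative to the summed TPM 0 of 6 were called as well, and 1 of 6, Myh3, had an unadjusted p under 0.05 in CAC against Con (-0.93, limma adjusted p = 0.705) and in NCAC against Con (-0.85, limma adjusted p = 0.999).

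Myh7, the slow isoform, was near the low end of measurement in most libraries. Its highest values were 11.999 TPM in CAC replicate 5 at 4 weeks, 5.71 TPM in CAC replicate 5 at 8 weeks and 5.69 TPM in CAC replicate 5 at 6 weeks, and its lowest 0.0405 TPM in Con replicate 1 at 8 weeks. That 4-week library also had the highest Tnnt1 (18.9 TPM), Tnnc1 (28.0 TPM) and Tnni1 (5.21 TPM), the slow troponins, and the highest Myh6 (8.91 TPM). At 8 weeks Myh7 averaged 1.53 ± 2.02 TPM in CAC and 0.807 ± 0.742 TPM in Con (SD, n = 7 and 5; log2 change 0.30, 95% interval -0.56 to 1.15, limma adjusted p = 0.533). Of all 100-base windows of the Myh7 transcript, 11.2% are identical in Myh6, so reads of the pair may be divided between them in a way that is not given. The same shares were 9.73% for Myh1 and 9.17% for Myh2, most of them with each other, 6.61% for Myh8, 3.85% for Myh4 and 1.15% for Myh3.

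Myh8, the perinatal isoform, fell into distinct ranges that cut across the groups. It lay between 1.06 and 2.39 TPM in 8 libraries and between 23.9 and 143.7 TPM in the other 54, with none between, a 9.996-fold step from 2.39 to 23.9 TPM. The largest such step of any other isoform was 5.86-fold, below the second lowest Myh2 value. The 8 libraries were 2 of 22 CAC, 5 of 20 NCAC and 1 of 20 Con, and they were singled out after their values had been seen. They are 2 NCAC libraries and 1 Con library at 2 weeks, 1 CAC library at 4 weeks, 1 NCAC library at 6 weeks, and 1 CAC and 2 NCAC libraries at 8 weeks. As a share of the summed TPM, Myh8 held 0.00649% to 0.0147% in the 8. The other 54 fell in turn into 0.279% to 0.373% and 0.540% to 0.664%, with none between. Each of these ranges holds CAC, NCAC and Con libraries, and the ranges were drawn after the values had been seen.

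Its neighbour Myh13 followed the same division. Myh13 had 0.378 to 2.44 TPM in those 8 libraries and 7.28 to 40.1 TPM in the other 54. Over the 62 libraries, which share their libraries and normalization, Spearman's rho between Myh8 and Myh13 was 0.92. The antisense gene Gm12300 (Myhas in the annotation) lies on the minus strand (67211256 to 67237573). It overlaps Myh1 from 67211256 to the end of Myh1 at 67224575 and runs to just before the start of Myh4. Gm12300 had 13.4 to 38.4 TPM in 7 of the 8 libraries and 2.30 TPM in CAC replicate 1 at 8 weeks. Its rho with Myh8 was -0.60. Whether the counting used strand is not given, so sense and antisense reads cannot be told apart with certainty. Myh4, on the other side of Myh8, ranged from 5170 to 13448 TPM in the 8.

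**Figure D5:**
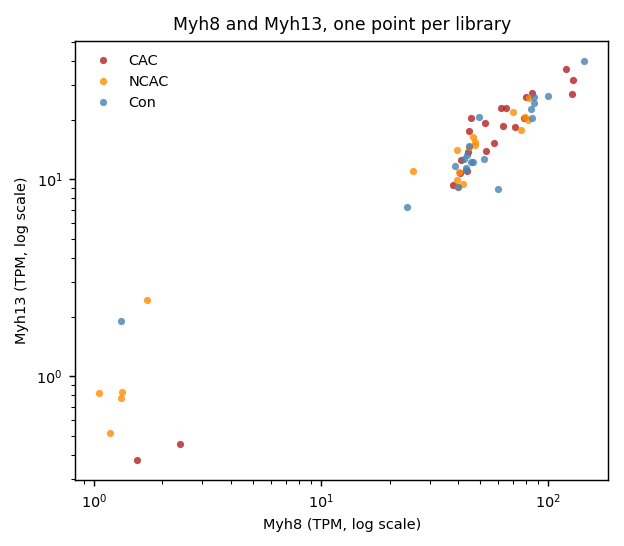
Myh8 against Myh13, both in TPM on logarithmic axes, 1 point per library, with CAC in red, NCAC in orange and Con in blue. The 8 libraries at the lower left have 1.06 to 2.39 TPM of Myh8 and at most 2.44 TPM of Myh13, and the other 54 have at least 23.9 and 7.28 TPM.

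No change of Myh8 was called in any comparison on TPM as deposited. At 8 weeks Myh8 stood at 1.55, 63.2, 78.2, 84.6, 45.6, 127.1 and 127.8 TPM in CAC, at 81.7, 1.06, 1.71, 82.3 and 47.3 TPM in NCAC, and at 43.2, 52.0, 46.4, 99.3 and 39.9 TPM in Con. The 2 highest values are of CAC and the 3 lowest are of CAC and NCAC. It averaged 75.5 ± 44.7 TPM in CAC, 42.8 ± 40.4 TPM in NCAC and 56.2 ± 24.5 TPM in Con (SD, n = 7, 5 and 5), and the log2 change of CAC against Con was -0.09 (95% interval -1.92 to 1.74, limma adjusted p = 0.934). CAC against NCAC gave 1.498 (95% interval -0.34 to 3.33, adjusted p = 0.136), and 2.22 (adjusted p = 0.0220) without CAC replicate 1, the 1 CAC library of that week among the 8. The 2 NCAC libraries of that week among the 8, at 1.06 and 1.71 TPM, stayed in that fit. It took a low value from CAC only, so no rise of Myh8 is read from it.

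Between NCAC and Con no isoform was called at 2, 4, 6 or 8 weeks (0 of 6 each; 0, 0, 0 and 1 at an unadjusted p under 0.05 on TPM as deposited, and 0, 1, 0 and 1 relative to the summed TPM, each time Myh3), where limma called 0.162%, 0%, 0% and 0.00900% of all genes. Myh2 averaged 547.7 ± 140.9 TPM in NCAC at 8 weeks and 756.7 ± 369.2 TPM in Con (SD, n = 5 each; log2 change -0.34, 95% interval -1.42 to 0.74, limma adjusted p = 1.00). Between CAC and NCAC no isoform was called on TPM as deposited either (0 of 6 at each week; 1, 0, 1 and 0 at an unadjusted p under 0.05), against 0.0630%, 5.27%, 67.7% and 72.1% of all genes. At 8 weeks the Myh2 change of CAC against NCAC was -0.99 (95% interval -1.99 to 0.02, adjusted p = 0.0719), and it was called after rescaling (-1.47, adjusted p = 0.0167), where 49.5% of all genes were called, and with the replicate number as a block (-1.47, adjusted p = 0.00666).

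Of 12 partner genes of fast fibres, 5 rose and 5 fell in CAC against Con at 8 weeks by limma on TPM as deposited, while rescaled values gave 0 up and 6 down. Of all genes tested, 69.4% were called higher and 5.09% lower in that comparison, and 24.9% higher and 24.2% lower after rescaling. The median of the 12 was 0.23 on the log2 scale (rescaled -0.29), against 0.46 (rescaled 0.02) for all genes. Atp2a1, the fast calcium pump of the sarcoplasmic reticulum, averaged 18106 ± 2691 TPM in CAC and 11657 ± 3253 TPM in Con (0.67, adjusted p = 0.000895; rescaled 0.15, adjusted p = 0.339). Casq1, the fast calcium-storage protein, fell to 1022 ± 802.9 TPM in CAC, against 2156 ± 518.6 TPM in Con (SD, n = 7 and 5; -1.68, adjusted p = 0.000367; rescaled -2.20). Of 10 partners of slow fibres, 2 rose and 1 fell (rescaled 2 and 2), with Myl3, the slow essential light chain, at 13.8 ± 11.2 TPM in CAC and 31.7 ± 11.3 TPM in Con (-1.48, adjusted p = 0.00858). Tpm3, the slow tropomyosin, rose (1.19, adjusted p = 5.24e-05).

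Of 8 tested genes of developing or denervated muscle, 12 listed, 3 rose and 1 fell at 8 weeks (rescaled 1 and 2). Actc1 fell to 8.32 ± 6.67 TPM in CAC, against 133.6 ± 145.3 TPM in Con (SD, n = 7 and 5; -3.65, limma adjusted p = 4.92e-08), and Chrna1, a subunit of the muscle acetylcholine receptor, rose (0.86, adjusted p = 6.16e-06). Of 29 tested regulators of fibre type, 30 listed, 14 rose and 2 fell, and 4 rose and 9 fell after rescaling. Beside these lists stand 69.4% of all genes called higher and 5.09% lower at 8 weeks, and 24.9% higher and 24.2% lower after rescaling. Sox6, a repressor of slow genes, rose by 0.89 (adjusted p = 2.92e-05; rescaled 0.39, adjusted p = 0.0173). Of 8 genes of myosin folding and turnover, 6 rose and 1 fell (rescaled 2 and 2). Trim63 averaged 1367 ± 1752 TPM in CAC and 119.9 ± 27.0 TPM in Con (2.34, adjusted p = 8.44e-05), and Unc45b, a myosin chaperone, rose by 0.59 (adjusted p = 0.000114; rescaled 0.08, adjusted p = 0.524).

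Of the 4 other sarcomeric heavy chain genes, 3 were tested, and Myh7b rose in CAC at 8 weeks (1.70 ± 0.965 TPM in CAC and 0.776 ± 0.451 TPM in Con, SD, n = 7 and 5; 0.55, limma adjusted p = 0.0214; rescaled 0.28, adjusted p = 0.302). Myh15 averaged 0.0421 TPM and was not tested. Of 4 tested non-muscle and smooth muscle chain genes 2 rose and 0 fell, also after rescaling, against 69.4% of all genes called higher (rescaled 24.9%). They were Myh9 (1.22, adjusted p = 6.96e-09; rescaled 0.73, adjusted p = 8.83e-06) and Myh11 (0.95, adjusted p = 4.94e-05; rescaled 0.47, adjusted p = 0.0375).

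At 6 weeks, where 60.7% of all genes tested were called higher and 3.26% lower (rescaled 16.9% and 18.1%), the same lists gave 4 up and 2 down for fast partners (rescaled 0 and 6), 2 and 1 for slow partners (rescaled 0 and 1), 2 and 1 for developmental genes (rescaled 0 and 2), 9 and 0 for regulators (rescaled 0 and 6) and 5 and 1 for folding and turnover (rescaled 2 and 2). Casq1 fell to 937.0 ± 423.4 TPM in CAC, against 2015 ± 486.6 TPM in Con (SD, n = 5 each; -1.28, limma adjusted p = 0.0122; rescaled -1.71), and Actc1 to 10.7 ± 3.91 TPM in CAC, against 84.5 ± 57.2 TPM in Con (-2.69, adjusted p = 8.55e-05). At 2 and 4 weeks limma called 0 of the 74 listed genes tested, with 3 at 2 weeks and 10 at 4 weeks under an unadjusted p of 0.05.

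Genes whose levels ordered the 62 libraries most like each isoform were ranked by Spearman's rho on log2(TPM + 1), a description without a test. For Myh4 they were Mybpc2 (0.934), the fast myosin-binding protein C, then Pygm (0.899), Atp2a1 (0.897), Actn3 (0.864) and Tnnt3 (0.861). For Myh2 they were Actn2 (0.741), the alpha-actinin of all fibre types, then Raver2 (0.709), Dusp18 (0.690), Bdh1 (0.686) and Rab15 (0.669). For Myh7 the slow troponin C gene Tnnc1 stood apart at 0.904, before Myl10 (0.503), Idh2 (0.502), Atp2a2 (0.489) and Sln (0.489). For Myh8 it was Myh13 (0.924), before Rpap1 at 0.507, and for Myh3 Cdh13 (0.658) and Tigd4 (0.640). For Myh1 the highest was Acadl at 0.561, and over rescaled values the same gene had 0.697 and Slc41a1 0.710. Among the isoforms, rho was -0.43 between Myh2 and Myh4 (rescaled -0.39), -0.23 between Myh1 and Myh4 (rescaled -0.44), 0.33 between Myh1 and Myh2 (rescaled 0.54) and 0.50 between Myh2 and Myh3 (rescaled 0.52).

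The muscle label was checked with 7 defining genes of skeletal muscle, whose summed level lay between 27723 and 67244 TPM. Endothelial, satellite cell, macrophage and adipocyte marker sums lay mostly higher in CAC at 6 and 8 weeks. These sums are on TPM as deposited and were not rescaled. On that scale the median log2 change of all genes in CAC against Con was 0.38 and 0.46. Median tendon and erythroid sums at 8 weeks were lower in CAC (22.1 and 477.9 TPM) than in Con (36.4 and 568.7 TPM). At 8 weeks the 3 endothelial markers summed to 123.9 to 162.8 TPM in CAC, 72.9 to 103.0 TPM in NCAC and 72.9 to 107.3 TPM in Con. The 3 satellite cell markers summed to 17.8 to 29.4 TPM in CAC, 12.4 to 14.2 TPM in NCAC and 7.59 to 19.7 TPM in Con, and the 3 macrophage markers to 6.19 to 20.4 TPM in CAC, 3.01 to 5.18 TPM in NCAC and 4.09 to 9.01 TPM in Con. The 4 adipocyte markers summed to 9.29 to 39.1 TPM in CAC, 2.86 to 9.79 TPM in NCAC and 2.23 to 11.9 TPM in Con. At 6 weeks the adipocyte markers summed to 17.3 to 79.6 TPM in CAC, 0.470 to 27.6 TPM in NCAC and 2.69 to 8.17 TPM in Con, and the macrophage markers to 6.39 to 10.7 TPM in CAC, 3.18 to 9.45 TPM in NCAC and 2.94 to 5.64 TPM in Con. The satellite cell markers of that week summed to 18.8 to 32.9 TPM in CAC, 7.94 to 15.3 TPM in NCAC and 10.7 to 19.8 TPM in Con, and the endothelial markers to 100.7 to 140.0 TPM in CAC, 45.7 to 99.0 TPM in NCAC and 91.6 to 104.6 TPM in Con. The 3 heart markers reached at most 1.02 TPM in any library of week 8, with Myl7 at a median of 0. The summed erythroid markers ran from 104 to 9228 TPM in CAC, 440.1 to 1453 TPM in NCAC and 219.0 to 887.3 TPM in Con, and the Schwann cell markers from 17.4 to 49.8 TPM in CAC, 12.1 to 35.2 TPM in NCAC and 9.86 to 72.1 TPM in Con. Tendon markers ran from 10.5 to 45.4 TPM in CAC, 16.0418 to 34.2 TPM in NCAC and 16.3 to 55.3 TPM in Con, hepatocyte markers reached at most 56.9 TPM in any of these libraries, and the 3 keratinocyte markers had medians of 0. At 4 weeks the heart markers summed to 0.155 to 8.21 TPM in CAC, with a median of 2.66 TPM. They summed to 0.149 to 0.743 TPM in NCAC and 0.122 to 1.22 TPM in Con at that week. The library with the highest Myh7 and Myh6 is of CAC at 4 weeks, and its own heart marker sum is not given here. The part of these markers in the isoform results was not tested. Albumin exceeded 100 TPM in 3 Con libraries, replicates 1 and 2 at 2 weeks and replicate 3 at 4 weeks.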

How the data were processed

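The authors deposited 1 table of TPM for 62 polyA-selected libraries (TruSeq stranded mRNA kit, NovaSeq, per the labels' protocols), each column summing to 1000000. Per the submitters' processing notes the build was mm10. Aligner, counter, annotation and use of strand: not given in the sources used here. TPM keeps no depth, so no interval from counting is given. P-values measure the spread between these libraries. All columns were mapped by title, 0 unmapped. The protocols call the libraries biological replicates.

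The 11107 genes averaging 1 TPM or more entered limma 3.58.1 (R 4.3.3) on log2(TPM + 1), with 1 mean for each of 12 groups, a trend and 50 residual degrees of freedom, a spread taken as equal in all groups, and Benjamini-Hochberg adjustment over all genes. Fold changes on this scale understate low genes. The same genes were kept on every scale. Isoform shares were also compared by exact permutation tests. The fit was tested on simulated data. The members and lists were chosen with earlier results of these data known. Named genes are the 6 members, up to 4 called genes with the smallest adjusted p per list in CAC against Con, of which some are printed, and the 5 genes of at least 5 TPM with the highest rho per member. Myh13, the antisense gene, the marker Actc1 in single libraries and the shared word were added after values were seen. Transcripts were compared in 100-base windows with GENCODE M21, and promoters were read from RefSeq (GRCm38.p6). Pseudocount 0.1, no filter, other scalings, fits of fewer groups, array weights, a replicate block and leaving out libraries were tried. Python 3.11.15, numpy 2.4.6, pandas 2.3.3 and matplotlib 3.10.9 were used. Same-numbered libraries did not deviate together (60 correlations of -0.33 to 0.33), so the numbers were not taken as pairs.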

Additional observations from a re-analysis of the deposited data

Results flagged for a closer look

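The change of Myh2 in CAC against Con differed between weeks by a direct test: 8 weeks minus 2 weeks gave -2.36 on the log2 scale (limma adjusted p = 0.0118).

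Single libraries stood far from the others of their group by Dixon's ratio in 17 of 144 group checks of level or share, and in 6 of 72 of level alone. The ratio flags about 1 group in 20 if values are normal and checks independent. Level and share of the same libraries are not independent, so no excess over that rate is read. Shares are bounded by each other, so Myh1 (44.3%) and Myh4 (50.001%) of NCAC replicate 2 at 2 weeks are one pattern. The Myh2 share of CAC replicate 2 at 2 weeks was 11.3%, the next 4.96%. Myh7 was high in CAC replicate 5 at 4 weeks (11.999 TPM, share 0.0914%), NCAC replicate 4 at 4 weeks (1.25 TPM, 0.00896%) and CAC replicate 5 at 6 weeks (5.69 TPM, 0.0298%). Myh3 was high in NCAC replicate 1 at 8 weeks (4.96 TPM, 0.0368%). Myh8 was high in NCAC replicate 5 at 4 weeks (79.2 TPM, 0.621%) and Con replicate 4 at 8 weeks (99.3 TPM, 0.664%), and its share was low in CAC replicate 4 at 4 weeks (0.0147%) and NCAC replicate 2 at 6 weeks (0.00649%). These Myh8 shares fall in the ranges given above, which libraries of other groups also reach.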

How the results depend on the processing

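The number of isoforms called was 1 in CAC against Con at 8 weeks, 1 for 8 weeks minus 2 weeks, 1 in CAC at 8 against 2 weeks and 0 in CAC against NCAC at 8 weeks. After rescaling these were 2, 2, 1 and 1, and without mitochondrially encoded genes 2, 2, 1 and 1, with Myh3 added in the first 2 and Myh2, lower, in the last. Rescaling also moved the genes called at 8 weeks to 5451 against 8272, and at 6 weeks to 3886 against 7103. In a fit of only the compared weeks the first was 0. Without the 3 libraries farthest out the counts were 0, 1, 0 and 1, the last being Myh8, higher in CAC (2.09, limma adjusted p = 0.0433). Leaving out each library in turn gave 0 to 2, 1 to 2, 1 to 1 and 0 to 1, and 0 to 1 at 6 weeks in both CAC comparisons. In CAC against NCAC at 8 weeks, Myh2 was called lower without CAC replicate 2 or 7. Without CAC replicate 1, Myh8 was called higher instead. On the share scale 2 were called at 8 weeks, 0 to 2 when leaving libraries out, and the unadjusted exact permutation test passed 1 isoform at each of 4 weeks. The cause was not tested. With the replicate number as a block, 1 was called in CAC against NCAC at 8 weeks, Myh2. On the share scale 1 was called in CAC against Con at 8 weeks, Myh2 (-1.96, limma adjusted p = 0.00219). Myh3 lost its call there (-0.83, limma adjusted p = 0.0715). The block changed no other call, and 15 of 60 same-number correlations exceeded 0.1. Of 2280 alternative values of single isoforms, 2244 kept their status, called or uncalled, 23 became called and 13 lost a call. Most of the 2244 were uncalled under both settings. Calls open to loss were the 3 of Myh2 on TPM as deposited, and the Myh2 and Myh3 shares in CAC against Con at 8 weeks. All 13 losses fell on these. The sign of values uncalled under both settings was not compared. TPM gives no depth, so Myh7 and Myh3, at a few TPM, have unknown counting error.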
